A study of Schizosaccharomyces pombe with 6 samples.

Results

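In fission yeast (*Schizosaccharomyces pombe*), 24 genes for plasma membrane transporters were followed in *spx1*Δ and wild-type cells. They are the protein-coding genes whose product text names both the plasma membrane and a transporter, 43 of 5126 protein-coding genes in a table of 6986 IDs, less 19 set aside by name or ID. Those set aside carry, among others, hexoses, ammonium, siderophores, copper, thiamine, zinc, iron and glycerophosphodiesters. The deletion strain was h+ *spx1*Δ::kanMX (BS53), in which the open reading frame of *spx1* was replaced by the marker kanMX. The Spx1 protein joins an SPX domain, which senses inositol pyrophosphates, to a RING finger of ubiquitin ligases. The comparison strain was an h+ wild type (AGP73). According to the strain list of the paper, its strains all carry mutant alleles of *leu1*, *ura4*, *his3* and *ade6*. Which of 2 *ade6* alleles each strain used here has was not established. Both strains were grown to log phase in YES, a rich medium, at 30 °C, and poly(A)+ RNA of 3 biological replicates of each strain was sequenced. The labels give 1 strain per genotype, so that any other difference between these 2 strains cannot be told apart from the deletion. The members and lists were chosen by product text and by name, and all 24 members had enough counts to be tested.

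Transporters of the plasma membrane set which nutrients a yeast cell can take up and which compounds it can expel. Many belong to the major facilitator superfamily (MFS) or to the amino acid permease family, and draw on the proton gradient made by the pump Pma1. Others are ATP-driven ABC pumps that export toxic compounds. In yeasts, the amount of a permease at the cell surface is set by transcription and also by sorting, in which arrestins guide ubiquitin ligases to the permease. RNA levels report on the first of these only.

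The counts summed to 24696086, 21653762 and 20929960 in *spx1*Δ replicates 1, 2 and 3, against 15282140, 11539278 and 14560026 in wild-type replicates 1, 2 and 3, so that depth went with strain. The members together took 0.312% to 0.323% of the counts in *spx1*Δ libraries and 0.373% to 0.378% in wild-type libraries. Without 1 member, *mfs3*, the shares were 0.299% to 0.301% in *spx1*Δ libraries and 0.288% to 0.293% in wild-type libraries, so that the lower total in *spx1*Δ rested on this gene. The deleted gene, *spx1* (SPAC6B12.07c), had 2163, 2185 and 2062 normalized counts in *spx1*Δ replicates 1, 2 and 3, against 5436, 5290.4 and 5153 in wild type, 2.48-fold lower (adjusted p = 1.07e-04, edgeR). It was lower in every *spx1*Δ library but not absent, and which part of the gene the remaining counts cover was not analysed here. Replicate 1 of *spx1*Δ lay nearer to wild type than the other 2 on the first principal component (9.3, against 49.7 and 39.5, with wild type at -33.7 to -32.1), and values by library are therefore given throughout. Levels are normalized counts, that is counts divided by the TMM-scaled library size and brought back to the average of those sizes. They are not divided by transcript length, and so are compared between strains and not between genes.

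Between *spx1*Δ and wild-type cells, transporter genes changed in both directions. At an adjusted p of at most 0.05 (edgeR quasi-likelihood test, Benjamini-Hochberg adjustment over 6127 IDs, with no threshold of fold), 10 of the 24 rose, 6 fell and 8 did not pass. These are 41.7% and 25.0% of the members, and 66.7% changed in either direction. Among all 4986 protein-coding genes tested, 21.2% rose and 30.2% fell at this threshold, 51.4% in all. Among all 6127 IDs, which include noncoding RNAs, 27.6% rose and 25.4% fell, 52.9% in all. The share of members that changed was thus above the background of either kind in this fit, with more rises and fewer falls than among protein-coding genes. The difference was not tested, and the background with a library left out was not analysed here. The same background applies to the counts of every list below. The share of members that changed was not particular to them. It was 63.2% among other plasma membrane carriers, pumps and channels, and 68.6% among transporters of inner membranes (lists described below). The median log2 fold change was 0.16 over the members and -0.08 over all protein-coding genes. The fall of the spermidine transporter gene *mfs3* was the largest, at 5.24-fold, and the largest rises of well-counted members were those of the borate exporter gene *bor1*, at 2.79-fold, and the pantothenate transporter gene *liz1*, at 2.11-fold. The study asked in addition for a 2-fold change and for an average of 100 normalized counts or more in the higher strain. Past those thresholds 2 members rose (*bor1* and *liz1*) and 1 fell (*mfs3*), where 3.35% of protein-coding genes and 7.51% of all IDs rose and 2.55% and 2.25% fell. The counts of calls depend on the libraries: 3 to 12 members rose and 3 to 9 fell when 1 library was left out. Only *bor1*, *liz1*, *vht1*, *mfs3*, *mfs1* and *nic1* kept their call under all 12 other settings run for each gene.

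**Figure D1:**
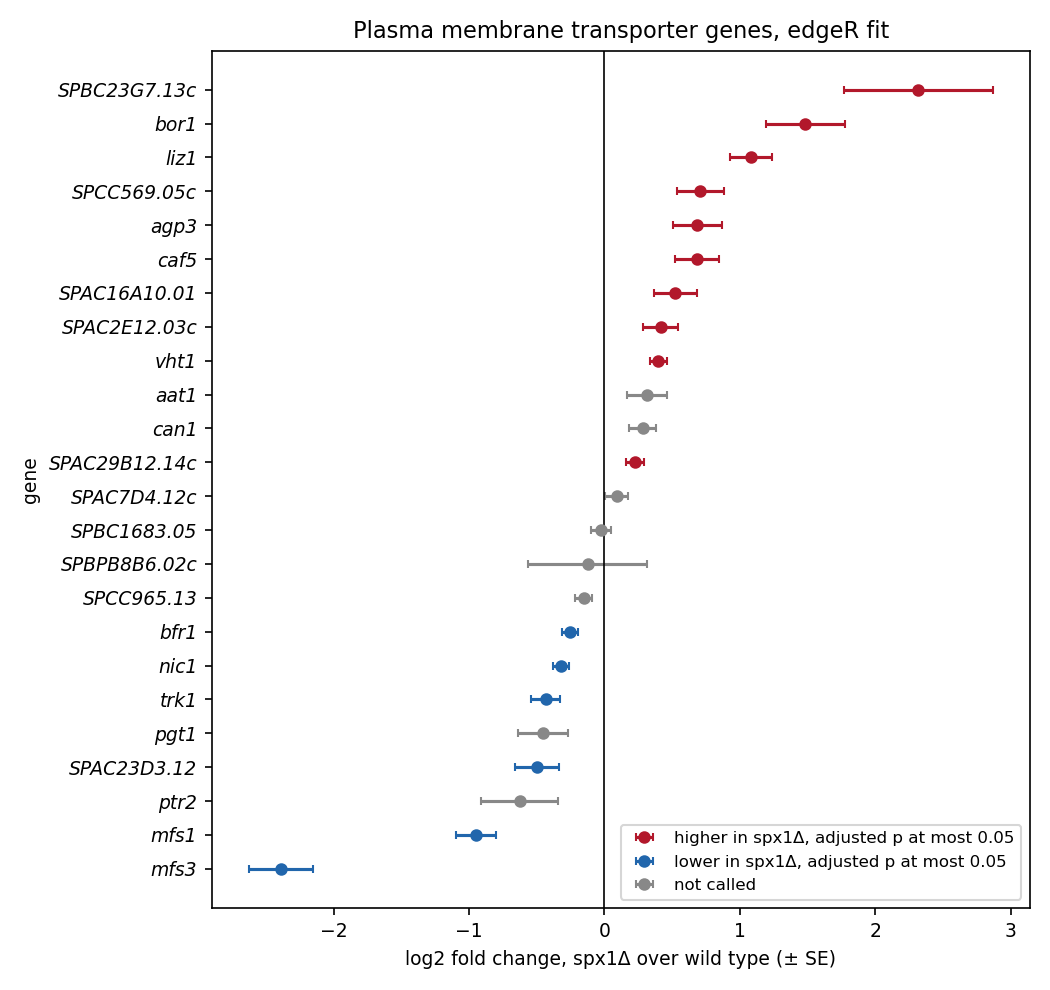
Log2 fold change of each of the 24 transporter genes in *spx1*Δ over wild type, with the approximate standard error as bars, from the edgeR fit (n = 3 libraries per strain). The genes that rose run from 0.23 to 2.32, those that fell from -2.39 to -0.25, and the 8 that did not pass are gray.

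The genes for polyamine and drug transporters held the largest fall and members that changed in opposite directions: of 5, 2 rose and 3 fell. Polyamines such as spermidine and spermine are small cations that bind nucleic acids, and MFS carriers move them across membranes. The *mfs3* gene (SPBC36.03c) had normalized counts of 4246, 2375 and 2437 in *spx1*Δ replicates 1, 2 and 3, against 15739, 15733 and 16018 in wild-type replicates 1, 2 and 3. Every *spx1*Δ library lay far below every wild-type library, and replicate 1 fell least. The means were 3019 ± 1063 in *spx1*Δ cells and 15829.8 ± 163 in wild-type cells (SD, n = 3 each), a log2 fold change of -2.39 ± 0.23 (approximate standard error, SE, of the fit, adjusted p = 0.00203, edgeR).

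A predicted relative, *mfs1* (SPAC17C9.16c), also fell, to 4153, 2840.3 and 3105 normalized counts in *spx1*Δ replicates 1, 2 and 3, against 6445, 6968 and 6052 in the wild-type replicates. The strains did not overlap, and the log2 fold change of -0.95 ± 0.15 (SE, adjusted p = 0.00500, edgeR) lay just short of 2-fold. An antisense RNA annotated at this gene, mfs1-antisense-1, had 45.2, 113 and 87.6 normalized counts in the *spx1*Δ replicates, against 31.4, 50.5 and 27.5 in wild type. That RNA rose by 1.18 on the log2 scale (adjusted p = 0.0470, edgeR), although its groups overlapped. The libraries were made with a stranded kit, but the strand setting used in counting is unknown here, so reads of the gene and of its antisense RNA may not be fully separated.

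The 2 other MFS genes of this kind rose. SPCC569.05c, predicted to encode a spermidine family carrier, had 3023, 1889.7 and 2167 normalized counts in the *spx1*Δ replicates, against 1523, 1425 and 1384 in wild type, a log2 fold change of 0.71 ± 0.17 (SE, adjusted p = 0.0163, edgeR). Unlike *mfs3* and *mfs1*, this gene departed most from wild type in replicate 1, and its call was lost without wild-type replicate 1, 2 or 3 (adjusted p of 0.0542 to 0.0629). The *caf5* gene (SPBC609.04), whose product is assigned to the spermine family and which is known for conferring resistance to caffeine when active in excess, had 1076, 1709.7 and 1427 in *spx1*Δ cells, against 863, 897 and 866 in wild-type cells. Its log2 fold change was 0.68 ± 0.16 (SE, adjusted p = 0.0158, edgeR), with no overlap between strains, and it did not pass without wild-type replicate 1, 2 or 3 or *spx1*Δ replicate 3 (adjusted p of 0.0557 to 0.0618). The ABC pump gene *bfr1*, which confers resistance to brefeldin A, fell slightly: its normalized counts were 6102, 6413 and 6199 in *spx1*Δ replicates, against 7439.9, 7051 and 7794 in wild-type replicates (log2 fold change -0.25 ± 0.06, adjusted p = 0.0141, edgeR). The *spx1*Δ libraries were close together for *bfr1*, unlike for most of the members that changed. It did not pass with protein-coding genes only (adjusted p = 0.0557), nor without wild-type replicate 1 or 3 or *spx1*Δ replicate 3 (adjusted p of 0.0575 to 0.0639).

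Because the product text of some polyamine carriers names no membrane, the other genes with spermidine, spermine or polyamine in their product were read too, a list drawn up after the members' values were seen. Of 5 such carriers, 1 rose, 1 fell and 3 did not pass. SPBC409.08, a predicted spermine family carrier, fell to 5344, 5799 and 5937 normalized counts in *spx1*Δ cells, against 8047, 8150.0 and 8061 in wild-type cells (log2 fold change -0.51, adjusted p = 0.00289, edgeR). SPBC947.06c, a predicted spermidine family carrier, rose by 0.59 (adjusted p = 0.00785, edgeR). Next to *mfs3* in the gene order of the reference annotation (ASM294v3) stand 2 further carriers of the spermidine family. SPBC36.02c had 358, 38.1 and 71.5 normalized counts in *spx1*Δ replicates 1, 2 and 3, against 326, 276 and 353 in wild type, and SPBC36.01c had 1676, 853 and 971 in *spx1*Δ cells, against 1589, 1729.8 and 1832 in wild-type cells. In both, replicate 1 of *spx1*Δ was within or near the wild-type range and the other 2 were lower, and neither passed (adjusted p = 0.278 and 0.0980, edgeR). Among genes of polyamine metabolism, spermidine synthase (*srm1*) fell by 0.37 (adjusted p = 0.0450), a predicted polyamine acetyltransferase (SPAC9.02c) fell by 0.30 (adjusted p = 0.0316) and the acetyltransferase gene SPAC1002.07c had a log2 fold change of -0.09 (adjusted p = 0.669, all from edgeR). Reads that similar carriers share, if any, could be divided between them by the counting step, and the sequence identity of the carriers was not analysed here.

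**Figure D2:**
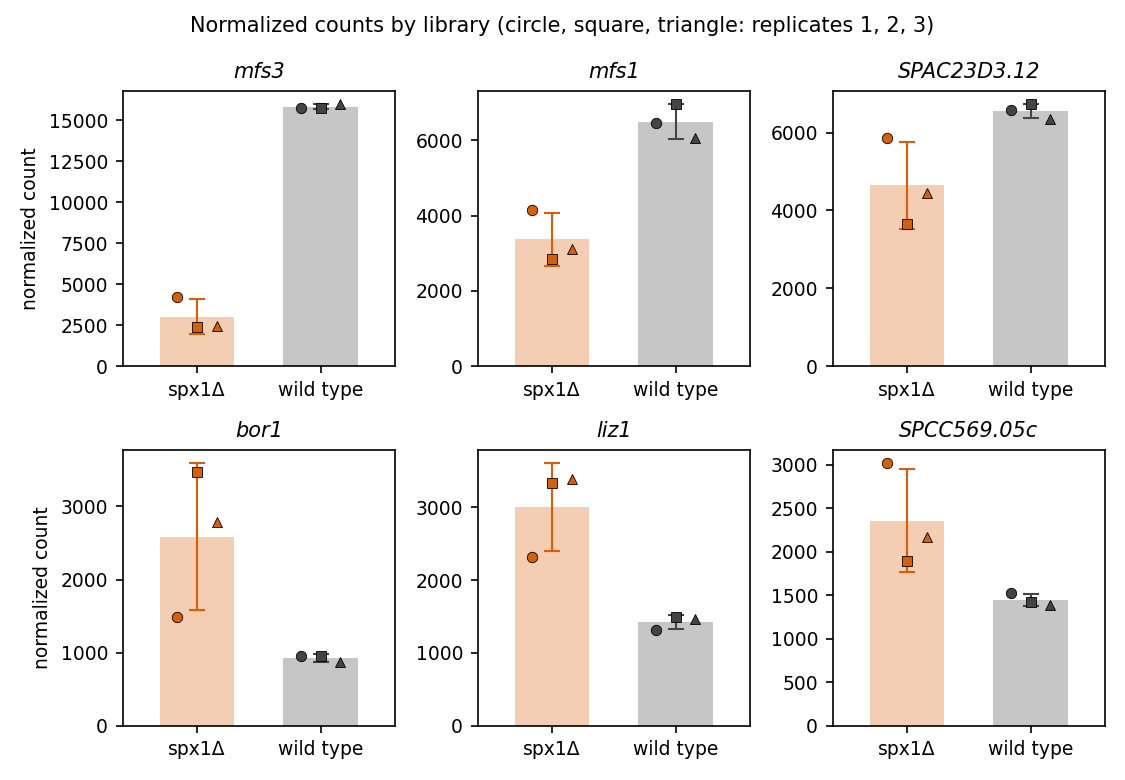
Normalized counts (y axis, from 0) of 6 transporter genes in *spx1*Δ and wild-type cells, with bars for means, error bars for the SD and 1 symbol per library (n = 3 per strain). In each panel the strains do not overlap, and *spx1*Δ replicate 1 is nearest to wild type for every gene shown except SPCC569.05c.

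Of 4 genes for inorganic ion and metal transporters, 1 rose and 3 fell. Bor1 is predicted to export borate, the form of boron that yeasts must keep low. The *bor1* gene (SPBC543.05c) had 1491, 3478 and 2792 normalized counts in *spx1*Δ replicates 1, 2 and 3, against 959, 954 and 865 in the wild-type replicates. All 3 *spx1*Δ libraries were higher than any wild-type library, by 0.69, 1.91 and 1.59 on the log2 scale over the wild-type mean. The means were 2587 ± 1009 in *spx1*Δ cells and 926 ± 52.8 in wild-type cells (SD, n = 3 each), with a log2 fold change of 1.48 ± 0.29 (SE, adjusted p = 0.00915, edgeR).

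The 3 ion transporter genes that fell changed less. SPAC23D3.12, for a predicted phosphate transporter, had 5848, 3649 and 4438 normalized counts in *spx1*Δ cells, against 6589, 6720.2 and 6349 in wild-type cells (log2 fold change -0.50 ± 0.16, adjusted p = 0.0405, edgeR). By *spx1*Δ replicate the log2 difference was -0.16, -0.84 and -0.56. The call was lost when wild-type replicate 1, 2 or 3 or *spx1*Δ replicate 2 or 3 was left out (adjusted p of 0.061 to 0.124) and with protein-coding genes only (0.0526). The *trk1* gene, for a potassium importer that feeds the main intracellular cation, had 2006, 1503 and 1664 in *spx1*Δ cells, against 2324, 2390.1 and 2277 in wild-type cells, a log2 fold change of -0.43 ± 0.11 (SE, adjusted p = 0.0179), which was lost without wild-type replicate 1, 2 or 3 or *spx1*Δ replicate 3 (adjusted p of 0.0574 to 0.0708). For *nic1*, whose product imports nickel, normalized counts were 1034, 995 and 1048 in *spx1*Δ cells, against 1248, 1325 and 1272 in wild-type cells. Here the 3 *spx1*Δ libraries agreed closely, and the log2 fold change of -0.32 ± 0.06 (SE, adjusted p = 0.00875, edgeR) was small but lay outside the spread of both strains.

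Nickel is the cofactor of urease, which splits the urea that urea transporters bring in, and the urea genes were therefore read beside *nic1* (a list of 5 by product words, drawn up after the members' values were seen). Of these 1 rose, 2 fell and 2 did not pass. The urease gene *ure2* fell to 2334, 1313 and 1501 normalized counts in *spx1*Δ cells, against 3154, 3176 and 3223 in wild-type cells (log2 fold change -0.89, adjusted p = 0.0143, edgeR), and the accessory protein gene *ure6* fell by 0.52 (adjusted p = 0.0354). The accessory protein genes *ure4* and *ure7* had log2 fold changes of 0.24 and -0.23 and did not pass (adjusted p = 0.0617 and 0.0659, edgeR). The urea transporter gene SPAC869.03c, left out of the members by its ID, had 170.3, 303 and 302 normalized counts in *spx1*Δ cells, against 33.8, 37.5 and 28.8 in wild-type cells, a log2 fold change of 2.95 (adjusted p = 0.00203, edgeR).

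Both urea transporter genes among the members had few counts. SPBC23G7.13c was counted 23, 61 and 34 times in *spx1*Δ replicates 1, 2 and 3, against 3, 4 and 7 in wild-type replicates, or 17.0, 49.5 and 28.9 normalized counts in *spx1*Δ cells, against 3.63, 6.52 and 8.75 in wild-type cells. All *spx1*Δ libraries were higher, and the log2 fold change of 2.32 ± 0.55 (SE, adjusted p = 0.0153, edgeR) rested on these few reads. It did not pass without wild-type replicate 1 or without wild-type replicate 2 (adjusted p up to 0.0629), and it stayed short of the level threshold of the study. An antisense RNA at this gene had more counts, at 322, 381 and 356 normalized counts in *spx1*Δ cells, against 282, 409 and 383 in wild-type cells. With the strand setting unknown, the sense counts may include a small leak of antisense reads, and the share of such reads was not tested. The antisense RNA itself had a log2 fold change of -0.02 and did not pass (adjusted p = 0.932, edgeR). The other member, SPBPB8B6.02c, had 14.1, 35.7 and 34.9 normalized counts in *spx1*Δ cells, against 22.96, 24.5 and 43.8 in wild-type cells, and a difference was not detectable at this depth (adjusted p = 0.822, edgeR).

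Of 3 genes for vitamin transporters, 2 rose and 1 did not pass. The *liz1* gene (SPBC2G2.01c) encodes the importer of pantothenate, the precursor of coenzyme A. It had 2312, 3328 and 3383 normalized counts in *spx1*Δ replicates 1, 2 and 3, against 1309.9, 1490.1 and 1468 in wild type, and the lowest *spx1*Δ library was above the highest wild-type library. Means were 3008 ± 603 in *spx1*Δ cells and 1423 ± 98.3 in wild-type cells (SD, n = 3 each), a log2 fold change of 1.08 ± 0.15 (SE, adjusted p = 0.00418, edgeR). The *vht1* gene (SPAC1B3.16c), for the importer of biotin, rose by 0.40 ± 0.06 (SE, adjusted p = 0.00496, edgeR), with 7003, 6625 and 7001 normalized counts in *spx1*Δ cells, against 5030.4, 5561 and 5069 in wild-type cells. Its rise was nearly the same in the 3 *spx1*Δ libraries, at 0.42, 0.34 and 0.42 over the wild-type mean. SPCC965.13, for a predicted pyridoxal family carrier, had 3978, 3536 and 3789.9 in *spx1*Δ cells, against 4237, 4294 and 4036 in wild-type cells, and did not pass although every *spx1*Δ library was lower (log2 fold change -0.15, adjusted p = 0.0747, edgeR).

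Genes that make or use these vitamins were read beside their importers, again from a list by product words drawn up after the members' values were seen. Of 6, 2 rose, 0 fell and 4 did not pass, where 51.4% of all protein-coding genes tested changed. Biotin synthase (*bio2*) rose by 0.38 (adjusted p = 0.0149, edgeR) and biotin-protein ligase (*bpl1*), which attaches biotin to enzymes, rose by 0.21 (adjusted p = 0.0289, edgeR). The pantothenate kinase gene *ptk1* had 3753, 5377 and 4892 normalized counts in *spx1*Δ cells, against 3990.0, 4074 and 4221 in wild-type cells, and did not pass (adjusted p = 0.241, edgeR). The remaining genes, *cut6*, *ppc1* and *hal3*, had negative log2 fold changes of -0.22, -0.15 and -0.09. They did not pass either (adjusted p = 0.144, 0.0713 and 0.535, edgeR), although every *spx1*Δ library was below every wild-type library for *ppc1*.

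The 6 genes for amino acid transporters among the members all had positive log2 fold changes, of 0.09 to 0.69, of which 3 passed. Outside the members, directions differed. The amino acid permease gene *isp5*, excluded by name, had a log2 fold change of -0.70 and did not pass (adjusted p = 0.126, edgeR). The permease gene *per1*, of a list described below, rose by 1.00 (adjusted p = 0.0114, edgeR). Leucine transporter gene *agp3* (SPCC965.11c) had 697, 1141 and 997 normalized counts in *spx1*Δ replicates 1, 2 and 3, against 568, 609.8 and 584 in wild type, a log2 fold change of 0.69 ± 0.18 (SE, adjusted p = 0.0202, edgeR). SPAC16A10.01, for a predicted amino acid transporter of the ThrE family, had 2499, 3896 and 3587 in *spx1*Δ cells, against 2164, 2366 and 2409 in wild-type cells (log2 fold change 0.52 ± 0.16, adjusted p = 0.0344). SPAC2E12.03c, for a predicted basic amino acid transporter, had 391, 487 and 493 in *spx1*Δ cells, against 372, 321 and 333 in wild-type cells (log2 fold change 0.42 ± 0.13, adjusted p = 0.0340). For these 3 genes the strains did not overlap, but *spx1*Δ replicate 1 was within 0.25 of the wild-type mean on the log2 scale and each call was lost without wild-type replicate 1, 2 or 3 or *spx1*Δ replicate 3, and for SPAC16A10.01 and SPAC2E12.03c also without *spx1*Δ replicate 2 (adjusted p of 0.062 to 0.121). With limma-voom SPAC16A10.01 did not pass either (adjusted p = 0.0534).

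The other 3 amino acid transporter genes overlapped between strains. The arginine and lysine importer gene *can1*, known from canavanine resistance, had 1709, 2134 and 1928 normalized counts in *spx1*Δ cells, against 1503, 1718 and 1522 in wild-type cells, and lay at the threshold (log2 fold change 0.28, adjusted p = 0.0508, edgeR). The general amino acid transporter gene *aat1* had 1393, 936 and 1085 in *spx1*Δ cells, against 870.0, 942 and 929 in wild-type cells (log2 fold change 0.32, adjusted p = 0.108), and only its replicates 1 and 3 lay above wild type. SPAC7D4.12c, a second ThrE family gene, had a log2 fold change of 0.09 (adjusted p = 0.381).

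Neither peptide transporter gene passed. For both, *spx1*Δ replicate 1 was close to wild type and replicates 2 and 3 were lower. Ptr2 imports small peptides, and its gene had 2308, 1039 and 1272 normalized counts in *spx1*Δ replicates 1, 2 and 3, against 2371, 2547 and 2211 in wild type (log2 fold change -0.62 ± 0.28, adjusted p = 0.102, edgeR). Glutathione importer gene *pgt1* had 1299, 792 and 880.5 in *spx1*Δ cells, against 1386, 1308 and 1382 in wild-type cells (log2 fold change -0.45 ± 0.18, adjusted p = 0.0731, edgeR). The strains overlapped for *ptr2* and not for *pgt1*, and without *spx1*Δ replicate 1 both passed, with log2 fold changes of -1.04 for *ptr2* and -0.71 for *pgt1*. Of the carriers of nucleobases, SPAC29B12.14c, for a predicted purine transporter, rose slightly, with 1125, 1064 and 1089.8 in *spx1*Δ cells, against 965.48, 893 and 943 in wild-type cells (log2 fold change 0.23 ± 0.07, adjusted p = 0.0284, edgeR). Its call was lost without wild-type replicate 1, 2 or 3 or *spx1*Δ replicate 3 (adjusted p of 0.0759 to 0.0996). SPBC1683.05, of the uracil and uridine permease family, had 4127, 3504 and 3742 in *spx1*Δ cells, against 3719, 3988 and 3865 in wild-type cells, with overlap and no call (adjusted p = 0.783).

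**Figure D3:**
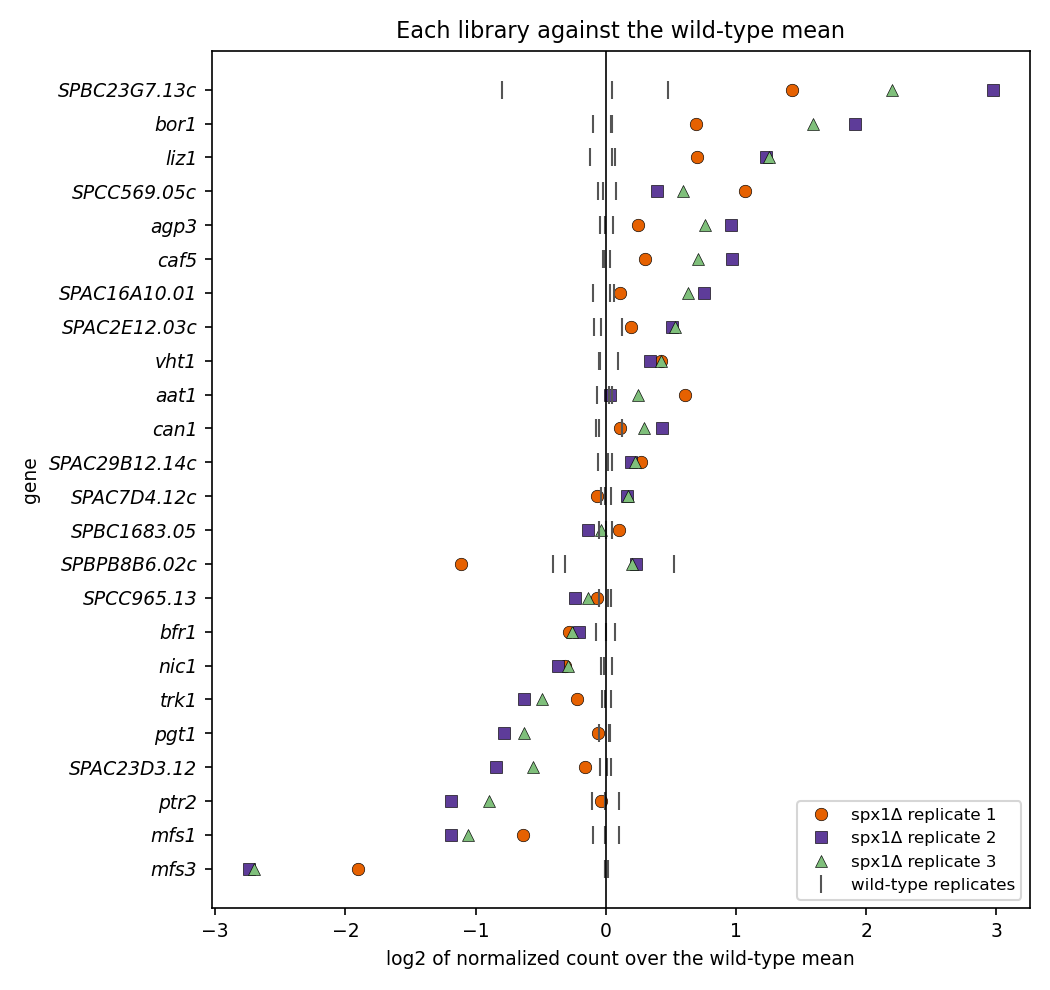
Log2 of the normalized count of each library over the wild-type mean, for the 24 genes in the order of their fold change. Colored symbols are *spx1*Δ replicates 1, 2 and 3 and ticks are wild-type replicates, and *spx1*Δ replicate 1 lies nearest to wild type for 7 of the 10 genes that rose and 4 of the 6 that fell.

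Over the members that changed, replicate 1 of *spx1*Δ moved less than the other 2 by the median. It was nearest to wild type for 7 of the 10 that rose and 4 of the 6 that fell, but not for SPCC569.05c, SPAC29B12.14c, *vht1*, *nic1* or *bfr1*. Over the 10 genes that rose, the libraries exceeded the wild-type mean by a median of 0.36 (replicate 1), 0.86 (replicate 2) and 0.67 (replicate 3) on the log2 scale, and over the 6 that fell the medians were -0.30, -0.74 and -0.52. Without that library 12 members rose and 9 fell. The genes *vht1*, *nic1*, *bfr1* and SPAC29B12.14c differed from the other members that changed in that their 3 *spx1*Δ libraries lay within about 0.1 of each other on this scale. Their changes were at most 1.32-fold. Strains did not overlap for 18 of the 24 members (75.0%), and for 65.5% of protein-coding genes and 66.2% of all IDs.

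The members were set beside 2 lists that are most like them. Of 19 other plasma membrane carriers, pumps and channels, whose product text uses no word transporter, 6 rose, 6 fell and 7 did not pass, with a median log2 fold change of -0.03. Of 51 transporters of the vacuole, mitochondria and other inner membranes, 15 rose, 20 fell and 16 did not pass, with a median of -0.06. Drawn up by product words, this list also holds *vtc2*, *vtc4* and *nrf1*, for subunits of the vacuolar transporter chaperone complex. The difference between the members and these lists was not tested. Among the other plasma membrane genes, *ivn1*, for a subunit of a phospholipid-moving ATPase, had 5770.0, 24642 and 16541 normalized counts in *spx1*Δ cells, against 3120.0, 3246 and 3411 in wild-type cells (log2 fold change 2.26, adjusted p = 0.0113, edgeR). The chloride channel gene SPBC19C7.11 had 282, 136 and 156 in *spx1*Δ cells, against 727, 699 and 619 in wild-type cells (log2 fold change -1.83, adjusted p = 0.00483). The amino acid permease gene *per1* rose by 1.00 (adjusted p = 0.0114), and *mae1*, for the importer of malate, fell by 0.73 (adjusted p = 0.0126, edgeR). These 4 were chosen after their values were seen.

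**Figure D4:**
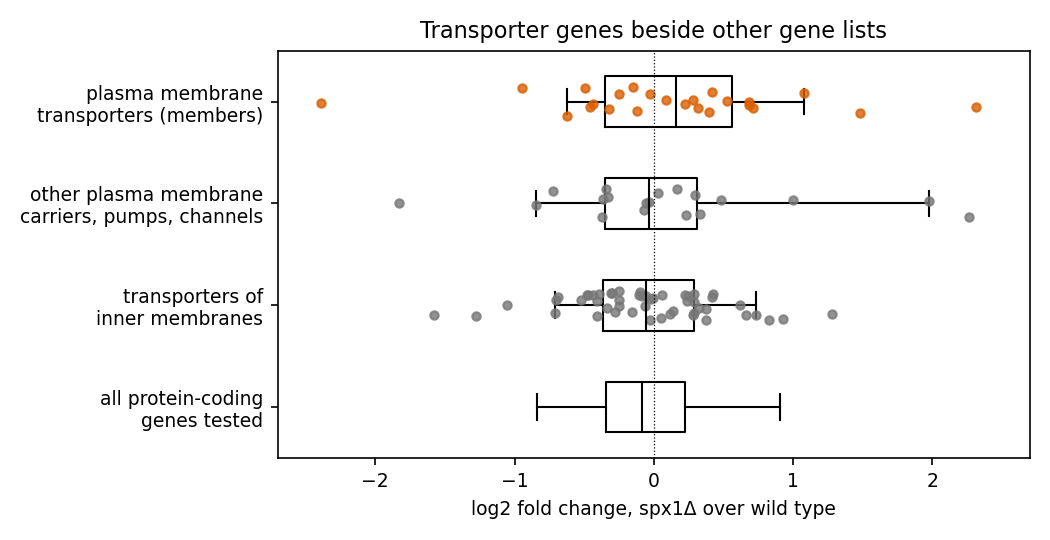
Log2 fold changes in *spx1*Δ over wild type for the 24 transporter genes, 19 other plasma membrane carriers, pumps and channels, 51 transporters of inner membranes and all 4986 protein-coding genes tested. Boxes span the quartiles with the median as a line, whiskers run from the 5th to the 95th percentile, dots are genes (not drawn for all genes), and the medians are 0.16, -0.03, -0.06 and -0.08.

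Proton and cation gradients drive many of these carriers. Of 6 genes listed for them, 5 were tested, 2 fell and 3 did not pass. The proton pump gene *pma1* fell by 0.33 (standard error 0.10, adjusted p = 0.0288, edgeR), to 87540.2, 73550.0 and 76604 normalized counts in *spx1*Δ cells, against 100942, 105166 and 92019 in wild-type cells, and *trk1* fell as given above. The potassium exporter gene *cta3* (log2 fold change -0.31), the second potassium importer gene *trk2* (-0.11) and the sodium antiporter gene *nhe1* (0.23) did not pass (adjusted p = 0.546, 0.247 and 0.0518, edgeR), and *pma2* had too few counts to be tested.

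Of 17 genes that control transporter genes or the sorting of permeases, 6 rose, 4 fell and 7 did not pass. The share that changed was 58.8%, near the 51.4% of all protein-coding genes tested. The arrestin gene SPBC557.05 had 583, 1829.7 and 1417 normalized counts in *spx1*Δ cells, against 115, 117 and 135 in wild-type cells, a log2 fold change of 3.38 ± 0.44 (SE, adjusted p = 0.00367, edgeR). The arrestin gene *any1*, whose product guides the ubiquitin ligase Pub1 to amino acid permeases, rose by 0.22 (adjusted p = 0.0160), whereas *any2* had a log2 fold change of -0.12 (adjusted p = 0.300). Among ubiquitin ligases, *pub1* fell by 0.23 (adjusted p = 0.0241), *pub2* rose by 0.27 (adjusted p = 0.0367) and *pub3* rose by 0.16 (adjusted p = 0.0377). The hamartin gene *tsc1*, whose product works with tuberin (Tsc2) in amino acid uptake upstream of the Rheb GTPase, fell by 0.71 (standard error 0.14, adjusted p = 0.00883, edgeR). Neither *tsc2* (0.00) nor the Rheb gene *rhb1* (-0.05) passed (adjusted p = 0.993 and 0.606). The kinase gene *gad8* fell by 0.26 (adjusted p = 0.0213), and *tor2* did not pass (adjusted p = 0.497).

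Factors of transcription in this list moved little. Of the pair that acts in oxidative stress and at drug efflux genes, *prr1* rose by 0.35 (adjusted p = 0.0176) and *pap1* had a log2 fold change of 0.11 (adjusted p = 0.119). The nuclear export factor gene *crm1* fell by 0.34 (adjusted p = 0.00483) and *hba1* did not pass (adjusted p = 0.636). The GATA factor gene *fil1*, known for its part in the response to amino acid shortage, rose by 0.30 (adjusted p = 0.0233), and *gaf1*, for a GATA factor of the nitrogen response, did not pass (adjusted p = 0.0684, all from edgeR).

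The cultures were labelled h+, and genes of mating type and sexual differentiation were read as markers of other cell states. Of 12 genes, 11 were tested, 5 rose (*map2*, *mam2*, *mfm3*, *sxa2* and *mei3*), 1 fell (*mam1*) and 5 did not pass. Their summed normalized counts were 2067 to 6106 in *spx1*Δ cells and 1136 to 1323 in wild-type cells for 3 genes of P cells, and 2421 to 4283 in *spx1*Δ cells and 2033 to 2252 in wild-type cells for 6 genes of M cells. The higher P-cell sum rested on *map2*, since *map1* and *map3* did not pass (adjusted p = 0.133 and 0.732, edgeR). In the M-cell sum, *mam2* had 875, 2625 and 2114 in *spx1*Δ cells, against 559, 641 and 660 in wild-type cells, whereas *mam1* fell. For 3 genes of sexual differentiation (*ste11*, *mei2* and *mei3*) the sums were 6673 to 7296 in *spx1*Δ cells and 7715 to 7861 in wild-type cells, most of which were counts of *ste11*, which did not pass (adjusted p = 0.259, edgeR). The meiotic inducer gene *mei3* rose, with 94.8, 499.6 and 341 normalized counts in *spx1*Δ cells, against 9.67, 9.78 and 10 in wild-type cells (log2 fold change 4.97 ± 0.73, adjusted p = 0.00444, edgeR). The P-factor gene *map2* had 901, 4713 and 3097 normalized counts in *spx1*Δ cells, against 89.42, 89.67 and 90.02 in wild-type cells. The M-factor gene *mfm1* had at most 9 counts in every library. By contrast, *mei2* had 1250, 465 and 546 in *spx1*Δ cells, against 1328, 1296 and 1509 in wild-type cells. It did not pass (log2 fold change -0.87, adjusted p = 0.0828, edgeR). For *map2*, *mei3* and *mei2*, as for *bor1* and *liz1*, *spx1*Δ replicate 1 was the *spx1*Δ library nearest to wild type. The same held on the first principal component of all IDs tested. The part of sexual differentiation in the changes of the transporter genes was not tested.

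In the gene order of the reference annotation (ASM294v3, later than the ASM294v2 of the files and used here for order only), the 24 members are scattered over the 3 chromosomes, and 3 of them (*nic1*, SPCC569.05c and SPBPB8B6.02c) are among the 20 outermost protein-coding genes of a chromosome end. No 2 members stand next to each other. Of the 32 genes next to the 16 members that changed, 9 changed in the same direction as the member, 10 in the opposite direction and 13 did not pass or were not tested. Among all protein-coding genes tested, 51.4% changed in either direction.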

How the data were processed

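Poly(A)+ RNA of 3 *spx1*Δ and 3 wild-type cultures was sequenced with paired reads. The authors mapped them to ASM294v2 with HISAT2 2.1.0, used SAMtools and counted reads per gene with HTSeq 0.10.0, with a strand setting not given in the sources used here. Whole-number counts per gene, unscaled, are what the first deposited table holds. A second deposited table gives, per strain, a signal that the authors call the average normalized read count, with fold changes and p-values of their DESeq2 comparison. These values were not used, and its gene names, products and types served as annotation. Of 2 rows that share 1 ID, 1 was dropped, which left 6986 IDs.

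IDs were kept by filterByExpr (6127 of 6986), library sizes were scaled by TMM, and strain was tested with glmQLFit and glmQLFTest as the sole term in edgeR 4.0.16 (R 4.3.3), with Benjamini-Hochberg adjustment over all IDs kept. Standard errors are the absolute log2 fold change over the square root of F. The p-values measure the spread between cultures of 1 strain per genotype. Total counts of 11539278 to 24696086 per library leave counting error mainly on genes with few counts. The scripts were tested on simulated data in which 200 genes were changed. The spread between replicates was set lower there than estimated for these data, and fewer genes changed than were called here. The simulation therefore does not give the rate of false calls in these data. Alternatives were library size only, DESeq2 1.42.0, limma-voom (limma 3.58.1), no filter, protein-coding genes only, each library left out and a replicate block, and for counts of calls an adjusted p of 0.01 and the study's thresholds.

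The members and lists were chosen with earlier results of these data known. Roles were read from the product text, with 3 assignments set by hand because a word was misspelled, missing from the list or matched another role first. Named were the members past the study's thresholds, then by size of change up to 8 in each direction, and those with the highest wild-type counts. The remaining members were named too. For the cation list, the common name sod2 belongs to a superoxide dismutase, and *nhe1* was used. All 24 members matched the reference gene table (ASM294v3), which served for gene order only. Its build differs from that of the files, so promoter motifs and protein comparisons were not analysed here and no level per length was computed.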

Additional observations from a re-analysis of the deposited data

How the results depend on the processing

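As reported, 10 members rose and 6 fell, with a median log2 fold change of 0.16. With 1 library left out the rises numbered 3 to 12, the falls 3 to 9 and the median was 0.13 to 0.24. Without *spx1*Δ replicate 1 there were 12 rises and 9 falls, without replicate 2 of this strain 9 and 5, and without replicate 3 there were 5 and 3. Leaving out a wild-type library gave 3 and 3 (replicate 1), 3 and 4 (replicate 2) and 4 and 3 (replicate 3). An adjusted p of at most 0.01 left 3 rises and 3 falls, and the thresholds of the study left 2 and 1. A fit of protein-coding genes alone, which moves them up by a median of 0.08, gave a median of 0.24, with 12 rises and 4 falls. DESeq2 gave 11 rises and 8 falls, limma-voom 9 and 6, library size only 11 and 6, and no filter 10 and 6. None of the 16 members called changed sign under any of the 12 alternatives run per gene, and 6 kept their call under all of them. The sign of 2 members that were not called changed: SPBC1683.05 had 0.02 with library size only, 0.05 with protein-coding genes only and -0.09 to 0.03 with 1 library left out, and SPBPB8B6.02c had -0.33 to 0.25 with 1 library left out. Leaving out a library also leaves fewer samples. The cause of other shifts was not tested.

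The replicate numbers share no stated batch. Deviations of same-numbered libraries from their strain means correlated at 0.117, 0.033 and 0.054 for numbers 1, 2 and 3, and *spx1*Δ replicate 2 correlated best with wild-type replicate 3 (0.06), so the numbers were not taken to pair the libraries. With a replicate block 9 members rose and 7 fell, of which 8 and 6 were also called without it. The block ended the calls of SPAC29B12.14c (adjusted p = 0.0679) and SPAC2E12.03c (adjusted p = 0.0765) and added *can1* (adjusted p = 0.0308) and *pgt1* (adjusted p = 0.0436).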
